A study of Homo sapiens and Mus musculus with 20 samples.

Results

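Polycomb proteins silence genes by marking their histones, and the 10 genes described here encode subunits of the 2 Polycomb complexes. The genes were EZH1, EZH2, EED, SUZ12 and JARID2 of Polycomb repressive complex 2 (PRC2) and BMI1, RING1, RNF2, CBX2 and CBX7 of Polycomb repressive complex 1 (PRC1). They were 10 of 19970 protein-coding genes. For each one, every enriched region that touched the gene body or the 10 kb on either side of it was taken from 16 human region lists (GRCh38), which gave 342 regions of 805893.

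PRC2 adds methyl groups to lysine 27 of histone H3. EZH1 and EZH2 are its alternative catalytic subunits, EED reads trimethylated lysine 27 (H3K27me3) and stimulates the enzyme, SUZ12 is the scaffold, and JARID2 is an accessory subunit that guides the complex to chromatin. PRC1 adds ubiquitin to histone H2A through RING1 or RNF2, its ring-finger ligases; BMI1 is a partner of the ligase, and CBX2 and CBX7 bind H3K27me3 through their chromodomains. KDM6A removes methyl groups from lysine 27 and so acts against PRC2, and it also belongs to the complexes that place H3K4me1, a mark of enhancers. Acetylation of the same lysine (H3K27ac) marks active promoters and enhancers and cannot coexist with methylation on one histone tail.

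The lists come from chromatin immunoprecipitation of multiple myeloma cells, 1 library per group. ARP1 cells were labelled KDM6A knock out (KO), KDM6A JmjD-dead (JmjD is the demethylase domain, and the titles give H1146E) or KDM6A wild type (WT). Each of the 3 genotypes has a list for H3K27ac, one for H3K27me3 and one for input, and H3K4me1 has a list for KO, titled E4, and one for WT. The KDM6A antibody was used on ARP1 KO and WT cells and on KARPAS, a line labelled multiple myeloma and KDM6A wild type. The HA antibody was used on an HA-tagged ARP1 line that carries the label knock out for its genotype, and on WT ARP1 cells. The labels do not say whether a line is 1 clone, whether E4 is the KO line of the other libraries, or how the tagged line was made. The antibodies that the protocol names are those to H3K27ac, H3K27me3 and KDM6A.

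Replicates are lacking, since each group is 1 library, so differences are given as values without a test. A value called lower or higher is a value of these libraries, and past a threshold means at least 1.5-fold in covered base pairs. The authors' scores are used only within a list, as the rank of a region by −log10 q, where a low rank number is a strong region. Regions equal in −log10 q were ordered by fold enrichment, p-value, chromosome and start. Ranks of weak regions with the same score can thus differ without a difference in strength. After filtering, the KO, JmjD-dead and WT libraries held 25.6, 31.2 and 30.8 M fragments (M, mega) for H3K27ac and 6.60, 10.4 and 5.03 M for H3K27me3. The H3K4me1 libraries held 25.6 M in KO and 34.0 M in WT, and the inputs 0.223 to 0.725 M. The KDM6A libraries held 20.2 M tags in ARP1 KO, 11.9 M in ARP1 WT and 37.4 M in KARPAS. The HA libraries held 25.3 M tags in the tagged line and 16.6 M in WT. All 8 plasma cell markers examined had an H3K27ac region near a gene end in every genotype, against at most 1 of 4 B cell markers (PAX5), 2 of 4 T cell markers (CD3E and CD2) and 0 of 4 myeloid markers. Of 4 epithelial and stromal markers, KRT8 and KRT18 had one in KO and JmjD-dead, and COL1A1 had one in WT. The KDM6A window itself held 12, 14 and 14 H3K27ac regions in KO, JmjD-dead and WT, and region lists do not show whether its coding sequence was disrupted.

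The promoters of 5 genes are printed because their start regions carry most of what follows: EZH2, EED, SUZ12 and BMI1 have strong acetylated starts, and CBX7 is the gene whose start no H3K27ac region covered. Each run is the strand of the gene, from 250 bases before to 50 after the start, as RefSeq gives it for GRCh38.p14. It lies at chr7:148884242-148884541 on the minus strand for EZH2, chr11:86244503-86244802 on the plus strand for EED, chr17:31936757-31937056 on the plus strand for SUZ12, chr10:22320849-22321148 on the plus strand for BMI1 and chr22:39152631-39152930 on the minus strand for CBX7. Capitals mark matches, on either strand, to TTTNNCGC (an E2F-type motif), GGGCGG (a GC box) and CCAAT. An ETS-type motif, CCGGAAG, was searched too.
EZH2: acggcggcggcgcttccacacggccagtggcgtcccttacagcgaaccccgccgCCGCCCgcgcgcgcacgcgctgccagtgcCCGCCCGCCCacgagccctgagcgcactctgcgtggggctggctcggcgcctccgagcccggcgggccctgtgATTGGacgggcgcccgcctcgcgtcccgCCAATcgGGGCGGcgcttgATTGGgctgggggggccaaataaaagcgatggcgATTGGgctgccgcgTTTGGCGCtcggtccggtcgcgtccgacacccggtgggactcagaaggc
EED: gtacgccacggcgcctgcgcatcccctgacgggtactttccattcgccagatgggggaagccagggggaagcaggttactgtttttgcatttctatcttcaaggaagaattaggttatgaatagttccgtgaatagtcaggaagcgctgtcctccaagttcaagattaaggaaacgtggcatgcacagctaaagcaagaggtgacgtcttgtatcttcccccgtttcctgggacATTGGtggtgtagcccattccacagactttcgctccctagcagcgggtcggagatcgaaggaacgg
SUZ12: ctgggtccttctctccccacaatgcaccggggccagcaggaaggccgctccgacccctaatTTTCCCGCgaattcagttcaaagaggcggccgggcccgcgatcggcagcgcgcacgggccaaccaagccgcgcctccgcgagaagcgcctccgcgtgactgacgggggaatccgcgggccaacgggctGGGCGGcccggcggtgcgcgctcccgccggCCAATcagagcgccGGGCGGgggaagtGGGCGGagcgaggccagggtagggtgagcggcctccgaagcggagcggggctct
BMI1: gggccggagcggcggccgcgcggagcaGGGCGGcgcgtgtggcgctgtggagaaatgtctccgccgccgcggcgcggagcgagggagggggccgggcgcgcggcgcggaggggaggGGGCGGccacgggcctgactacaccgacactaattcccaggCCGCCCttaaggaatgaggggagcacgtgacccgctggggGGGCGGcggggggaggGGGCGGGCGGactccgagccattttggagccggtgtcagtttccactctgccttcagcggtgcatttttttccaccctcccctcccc
CBX7: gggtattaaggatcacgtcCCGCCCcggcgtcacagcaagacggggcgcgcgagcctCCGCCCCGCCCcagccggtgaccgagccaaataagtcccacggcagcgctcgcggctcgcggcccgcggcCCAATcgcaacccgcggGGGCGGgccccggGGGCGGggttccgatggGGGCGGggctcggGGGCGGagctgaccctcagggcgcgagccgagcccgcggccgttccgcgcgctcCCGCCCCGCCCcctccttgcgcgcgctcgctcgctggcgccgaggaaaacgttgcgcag
TTTNNCGC was found in 3 of 9 Polycomb promoters (EZH1, EZH2 and SUZ12), against 9.17% of 13791 promoters of the same length. GGGCGG was found in 8 of 9, all but EED, against 58.5%. CCAAT was found in 5 of 9 against 37.1%, and CCGGAAG in 0 of 9 against 14.6%. The EZH2 promoter held 4 CCAAT and 4 GGGCGG matches, and CBX7 held 9 GGGCGG matches. The median Polycomb promoter was 73.0% G and C with 40 CpG dinucleotides, against 62.7% and 22 over all promoters; EED was the poorest of the 9, with 52.3% and 16. Some GGGCGG matches overlap each other, and a match is only a run of letters.

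H3K27ac was present at all 10 Polycomb genes in every ARP1 genotype. All 10 windows held a region in KO, JmjD-dead and WT, where 76.5%, 74.6% and 74.3% of all gene windows did. The annotated start was covered in 8 of 9 genes in each genotype, against 49.7% of all genes in KO, 48.3% in JmjD-dead and 48.6% in WT. The exception in all 3 was CBX7; CBX2 was not assessed for its start. The 10 genes differed widely in rank, from BMI1 and EED, among the strongest regions of the genome, to RNF2, EZH1 and CBX7.

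**Figure D1:**
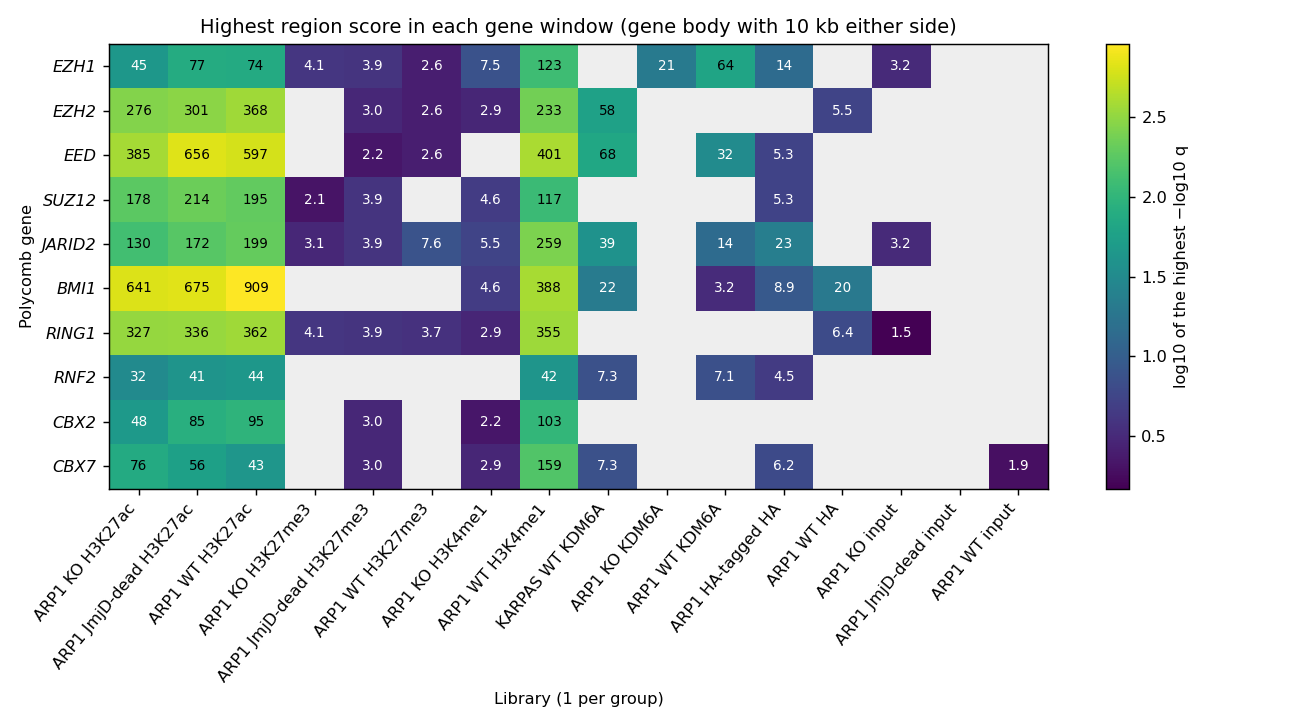
Highest −log10 q of any region in the window of each Polycomb gene (rows) in each of the 16 human libraries (columns, 1 library per group); the number is the −log10 q, the colour its log10, and grey means no region. BMI1 has the highest H3K27ac score in the KO, JmjD-dead and WT lists (641, 675 and 909) and no H3K27me3 region.

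BMI1, the PRC1 subunit known as an oncogene in lymphoid cells of mice, lay inside a single H3K27ac region. The region ran from 15.3 kb before the start to 24.8 kb after it in KO, and was 40141 bp long in KO, 39950 bp in JmjD-dead and 39819 bp in WT. It covered the whole 30608-bp window in all 3 genotypes. It ranked 85 of 76242 regions in KO, 133 of 74063 in JmjD-dead and 66 of 69127 in WT, with a −log10 q of 641, 675 and 909. The median H3K27ac region of each list was only 438, 440 and 487 bp long. The neighbouring gene COMMD3 and the joint COMMD3-BMI1 gene share the window, so the region cannot be given to BMI1 alone. No input list held a region there, at 0.223 to 0.725 M fragments.

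EED had the strongest start of the PRC2 genes. Its start region ranked 441 in KO, 148 in JmjD-dead and 255 in WT, with a −log10 q of 385, 656 and 597. EZH2 came next, at ranks 1208, 1447 and 1010 with a −log10 q of 276, 301 and 368, and was followed by SUZ12 at ranks 3210, 2947 and 3821 with a −log10 q of 178, 214 and 195. The order EED, EZH2, SUZ12 was the same in the 3 genotypes.

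JARID2 and EZH1 were weaker at their starts. The JARID2 start region, about 5 kb long in each genotype, ranked 5374 in KO, 4357 in JmjD-dead and 3732 in WT. EZH1, the catalytic subunit more typical of non-dividing cells, ranked 13461, 10620 and 11038, with a −log10 q of 44.5, 76.7 and 74.3. The EZH1 start thus stood far behind that of EZH2, its alternative in the complex, in each list.

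Among the PRC1 genes the ligase RING1 ranked high and its paralogue RNF2 low. The region over the RING1 start was 4568 bp long in KO, where it reached back over the upstream neighbour HSD17B8, against 1873 bp in JmjD-dead and 1659 bp in WT, and it ranked 718, 1664 and 2765. The RING1 window also holds SLC39A7 and RXRB, and its other regions lie upstream, towards those genes. The RNF2 start ranked 16080, 15655 and 14979, with a −log10 q of 31.7, 41.5 and 44.2. The 2 ligases therefore differed more between themselves than either did between genotypes.

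CBX7 was not covered at its start. In KO, JmjD-dead and WT a region began 106, 84 and 87 bp after the start and another ended 188, 323 and 275 bp before it, so the start lay in a gap between 2 acetylated regions. The strongest CBX7 region lay inside the gene, from 7.02 to 8.68 kb after the start in KO, 7.03 to 8.05 kb in JmjD-dead and 6.99 to 8.49 kb in WT. It ranked 9416, 13206 and 15433. The best regions in the CBX2 window, at ranks 12963, 9763 and 9070, lay 18.7 to 21.2 kb after the lower coordinate of CBX2, nearer to the other Polycomb gene CBX8. Regions at that lower coordinate itself were weaker, with a best rank of 13213 in KO, 15216 in JmjD-dead and 14813 in WT.

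The covered base pairs were then set side by side between genotypes. In KO 1 of 10 Polycomb genes was lower than in WT by 1.5-fold or more, against 6.23% of 14238 genes, and 0 were higher, against 13%. The median ratio of KO to WT was 1.06 for the 10 genes and 1.11 for all genes. In JmjD-dead 0 of 10 were lower, against 6.69% of 13996 genes, and 0 were higher, against 5.47%, with a median ratio of 1.01 against 0.986. Both comparisons use the same WT library. The CBX7 window was just inside the threshold, with 3537 bp in KO against 2373 bp in WT, a ratio of 1.49. These counts are near the background, and BMI1 had a ratio of 1 in both because its window was full.

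**Figure D2:**
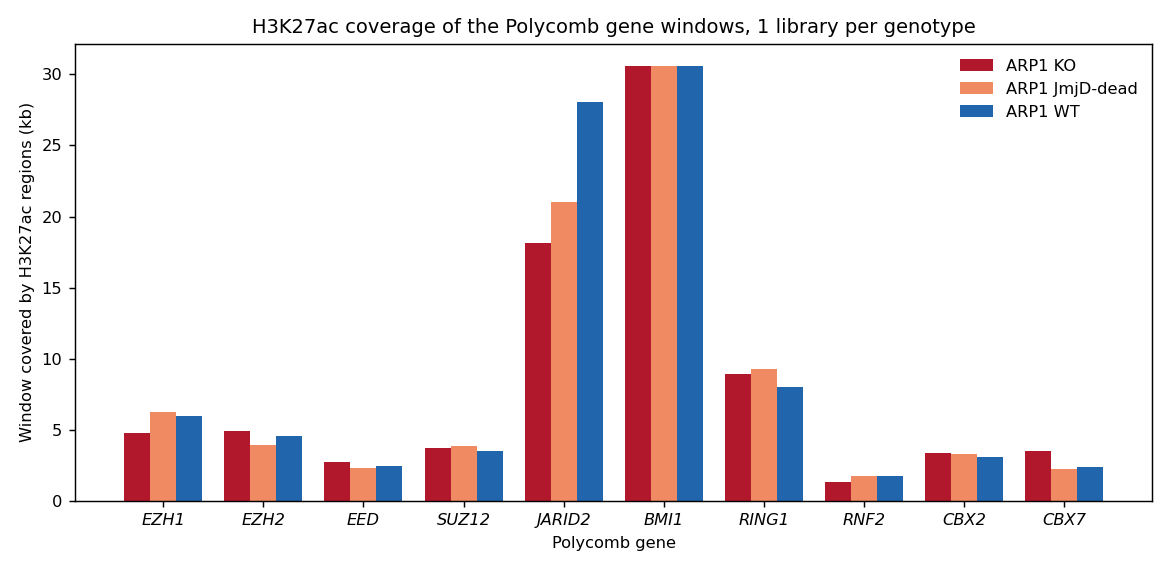
Length of each Polycomb gene window covered by H3K27ac regions, in kb, in ARP1 KO, JmjD-dead and WT, 1 library per bar and so no error bar. JARID2 shows the largest gap in length between genotypes, with 18113 bp (KO) and 21026 bp (JmjD-dead) against 28069 bp in WT, while BMI1 is full in all 3.

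The PRC2 genes other than JARID2 kept within the threshold. EZH1 had 4785 bp (KO) and 6276 bp (JmjD-dead), against 5996 bp in WT, and EZH2 had 4883 and 3942 bp against 4560 bp. EED had 2725 and 2341 bp against 2443 bp, and SUZ12 had 3719 and 3869 bp against 3533 bp. Among the PRC1 genes, RING1 had 8922 bp (KO) and 9258 bp (JmjD-dead), against 8016 bp in WT. RNF2 had 1338 and 1773 bp against 1745 bp, and CBX2 had 3333 and 3284 bp against 3100 bp. With all regions counted, no gene but JARID2 thus differed by 1.5-fold in either mutant library.

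The gene past the threshold was JARID2. Its 295974-bp window was covered over 18113 bp (KO) and 21026 bp (JmjD-dead), against 28069 bp in WT, a ratio of 0.645 and 0.749. The window held 18 regions in KO and 18 in JmjD-dead, against 28 in WT. The start region was of similar length throughout, being 5157 bp long in KO, 5357 bp in JmjD-dead and 5218 bp in WT, and the shorter coverage lay further into the gene. The KO library held fewer fragments than WT and the JmjD-dead library more, and the part of depth in the JARID2 values was not tested.

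Inside JARID2 the largest stretch, 50 to 55 kb after the start, held regions of 2438 and 2026 bp in KO and mainly 1 region of 5085 bp in JmjD-dead, against 1 region of 5558 bp in WT. A KO input region of 177 bp, with a −log10 q of 3.17, lies at 55.0 kb inside that WT region, and without regions on input JARID2 is no longer past the threshold (18113 bp in KO against 22511 bp in WT). With −log10 q of at least 5 it is not past it either (15859 bp in KO against 23545 bp in WT, a ratio of 0.674), and RNF2 is instead (1126 bp against 1745 bp, 0.645). A stretch at 8 to 11 kb was held by regions of 518 and 256 bp in KO and of 1204 and 966 bp in JmjD-dead, against 1 region of 2646 bp in WT. Of the 28 JARID2 regions in WT, 17 had no overlapping region in KO, against 30.1% of the WT list, and 15 had none in JmjD-dead, against 27.7%. The strongest of them, 152.3 kb after the start, had a −log10 q of 15.8 and was absent from both mutant lists, and the others were weaker.

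**Figure D3:**
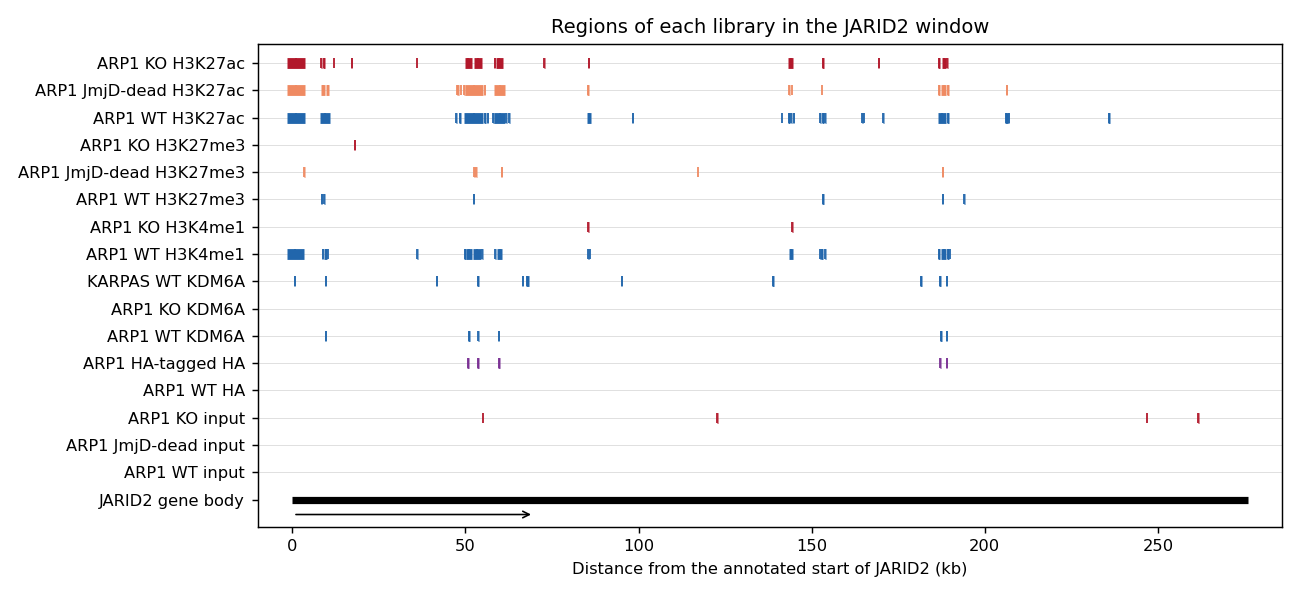
Regions of the 16 human libraries in the JARID2 window (1 library per row), by distance from the annotated start in kb; each region is drawn to scale with a tick of fixed width so that short ones can be seen, red for KO, orange for JmjD-dead, blue for WT and purple for HA-tagged. The interior regions at about 50 to 60 kb and 187 to 189 kb carry H3K27ac, H3K4me1 in WT, KDM6A in WT and HA in the tagged line, and the KO KDM6A and WT HA rows are empty.

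Over all 10 genes, 14 of 51 KO regions had no region in WT, against 35.2% of the KO list. In turn 21 of 55 WT regions had none in KO, against 30.1% of the WT list. For JmjD-dead it was 3 of 42, against 29.1%, and 20 of 55 WT regions had none in JmjD-dead, against 27.7%. JARID2 alone gave 17 of the 21 and 15 of the 20. In the other direction the 14 KO regions were weak, with a −log10 q of at most 6.48, and 5 of them were in JARID2 and 4 in EZH2. The start regions of EZH2, EED, SUZ12, RNF2, EZH1, JARID2, BMI1 and RING1 had a counterpart in all 3 genotypes. This follows from their starts being covered in each list and is not a further result.

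H3K27me3, the product of PRC2, was present at some of the 10 genes as weak regions. They touched 4 of 10 windows in KO, 8 of 10 in JmjD-dead and 5 of 10 in WT, where 22.9%, 44.7% and 31.2% of all windows were touched. None covered an annotated start of the 9 genes assessed in any genotype. Over all genes only 0.487% of starts were covered in KO, 0.563% in JmjD-dead and 0.228% in WT, so this is near the background. The JmjD-dead H3K27me3 list was also the longest, with 37236 regions against 11865 in KO and 17355 in WT, and its library was the deepest. With the lists cut to equal length, 0 of 10 windows were touched in JmjD-dead, against 4 in KO and 4 in WT. The cut was by rank, with regions of equal score ordered by chromosome. It dropped JmjD-dead regions with a −log10 q of 3.93 and kept WT ones with 2.56, so these counts are not at equal score. The part of depth was not tested.

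These regions were weak. The highest −log10 q was 4.14 in KO, 3.93 in JmjD-dead and 7.56 in WT, and the median length was 305, 290 and 264.5 bp. The WT maximum was a 275-bp region 187.8 kb after the JARID2 start, at rank 1868 of 17355. It overlapped an H3K27ac region in all 3 genotypes. Together 3 of 5 KO, 14 of 24 JmjD-dead and 9 of 12 WT regions overlapped H3K27ac of the same line. Of all H3K27me3 regions, 70.8% in KO, 50.6% in JmjD-dead and 64.4% in WT did so. BMI1 and RNF2 had no H3K27me3 region in any genotype.

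By covered base pairs, 2 Polycomb genes had enough H3K27me3 to compare KO with WT. JARID2 was lower, with 193 bp against 1812 bp, and RING1 was not past the threshold, with 682 bp against 813 bp. Of all genes compared, 46.4% of 2093 were lower in KO and 22.5% were higher, so 1 of 2 lower and 0 higher is near the background. In JmjD-dead 3 of 4 were higher, against 71.4% of 3993 genes, and 0 were lower, against 7.11%. With lists of equal length 0 were higher and 1 was lower, and the median ratio was 0 in place of 1.82. That cut left no JmjD-dead region at these genes, so these values are set by the cut. The 3 higher at full length were EZH2 with 1075 bp against 542 bp in WT, RING1 with 1346 bp against 813 bp, and CBX7 with 1086 bp, where the WT list has no region. JARID2 had 1628 bp in JmjD-dead against 1812 bp in WT. The other genes had too little H3K27me3 to compare. EZH1 had 200 bp (KO) and 534 bp (JmjD-dead), against 276 bp in WT, and EED had 0 and 620 bp against 197 bp. SUZ12 had 437 and 455 bp against 0 bp, and CBX2 had 480 bp in JmjD-dead alone.

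H3K4me1 separated the 2 libraries at every Polycomb gene, as it did over the genome. Regions touched 8 of 10 windows in KO and 10 of 10 in WT, against 60.1% and 78.1% of all windows. The annotated start was covered in 0 of 9 genes in KO and 9 of 9 in WT, against 1.45% and 53.7% of all genes. Covered base pairs were lower in KO in 10 of 10 genes, against 87.1% of 14153 genes, and higher in 0, against 6.03%. The median ratio was 0.0735 for the 10 genes and 0.112 for all genes.

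The WT values were large and the KO values small in each case. The BMI1 window was covered over 442 bp in KO, against 30180 bp in WT. JARID2 had 380 bp in KO against 18482 bp in WT, and EZH2 had 289 bp against 4161 bp. EED and RNF2 had no region in KO, against 2113 and 2003 bp in WT. SUZ12 had 656 bp against 3803 bp, RING1 667 bp against 7598 bp, CBX2 273 bp against 3524 bp and CBX7 842 bp against 3927 bp. EZH1 had the largest share in KO, with 1390 bp against 4738 bp, a ratio of 0.293.

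No H3K4me1 region of KO at these genes had a −log10 q above 7.47, while WT reached 401 at the EED start, rank 297 of 95729. Of 24 KO regions, 11 had no counterpart in WT, against 69.2% of the KO list, and of 56 WT regions 45 had none in KO, against 75.3% of the WT list. CBX7, whose start lay in a gap between H3K27ac regions, had an H3K4me1 region over that start in WT, from 14 bp before to 748 bp after. The KO library covered few starts anywhere, at 25.6 M fragments and with 80845 regions, and the part of that library in the Polycomb values was not tested.

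**Figure D4:**
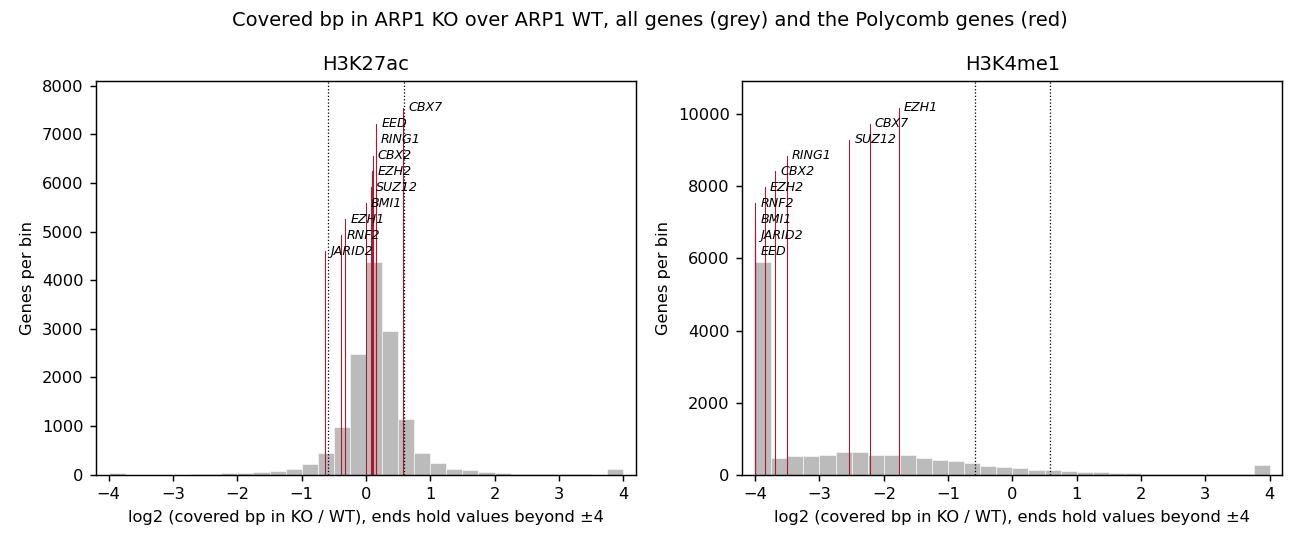
Covered base pairs in ARP1 KO over ARP1 WT on a log2 scale (x) for H3K27ac (left) and H3K4me1 (right): grey bars count all genes per bin, red lines mark the Polycomb genes, dotted lines the 1.5-fold thresholds, and values beyond ±4 are drawn at the ends. For H3K27ac only JARID2 lies left of the lower threshold, and for H3K4me1 all 10 genes do, as do 87.1% of all genes.

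The KDM6A and HA antibodies asked where the demethylase itself lay. KDM6A regions touched 1 of 10 windows in KO and 5 of 10 in WT, against 14% and 36.8% of all windows. A WT region with none overlapping in KO was found at 5 of 10 genes (EZH1, EED, JARID2, BMI1 and RNF2), against 34.4% of all genes. The best one at BMI1 was weak, with a −log10 q of 3.23 and rank 63849 of 90964. HA regions touched 7 of 10 windows in the HA-tagged line and 3 of 10 in the WT line, against 44% and 35.6%. A tagged-line region with none overlapping in the WT line was found at 7 of 10 genes, against 39.8%. A region of both kinds at the same place was found at 4 of 10, EZH1, EED, JARID2 and RNF2, against 19.1%. The KDM6A lists held 44936 regions in KO and 90964 in WT. The HA lists held 54338 in the tagged line and 78725 in WT. The part of depth and list length in these counts was not tested.

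JARID2, whose window is the longest of the 10, held 6 of the 13 KDM6A regions in WT and 5 of the 8 sites of both antibodies. Its WT KDM6A regions covered 0.716% of the window, less than at EZH1 (1.43%), EED (1.25%) and BMI1 (1.7%). All 6 had none in KO, against 69.4% of the WT KDM6A list. Of those 6, 5 overlapped an HA region found in the tagged line and not in the WT line, against 16.4% of the WT KDM6A regions with none in KO. These 5 lay 50.7, 53.6, 59.4, 187.2 and 188.8 kb after the start, inside the gene. The first of these, at chr6:15296783-15297276, had a −log10 q of 12.9 and rank 13563 of 90964 in the WT KDM6A list, and the HA region over it had 23.0 and rank 4863 of 54338. The others were weaker. In the same order, their −log10 q was 7.13, 8.21, 4.13 and 5.09 for KDM6A and 7.98, 6.19, 1.71 and 3.75 for HA. The HA region at 187.2 kb stood near the end of its list, at rank 53935. The one with no HA region, 9.4 kb after the start, was the strongest for KDM6A, at rank 11672. Each of the 6 overlapped an H3K27ac region of WT, against 24.0% of the WT KDM6A list.

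At EZH1 the KO list held a region too. A KDM6A region 39.7 to 40.2 kb after its start, at rank 578 of 90964 in WT with a −log10 q of 63.7, was also present in KO, at rank 1942 of 44936 with a −log10 q of 20.6, and in the HA-tagged line at rank 9285. This region of the KDM6A antibody was thus not specific to the WT line. A weaker one at 36.1 kb, rank 34847, was found in WT and the tagged line among the KDM6A and HA lists.

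EED carried a KDM6A region 6.51 to 6.92 kb after its start, at chr11:86251265-86251676, with a −log10 q of 32.4 and rank 2354 of 90964 in WT and none in KO. A second one, 42.4 kb after the start, at rank 14272, overlapped no region of any other list. An HA region of the tagged line overlapped the first, though at rank 36330 of 54338, and 2 more HA regions lay at the EED start, in the promoter printed above and just upstream. At CBX7 the tagged line had an HA region inside the gene, 7.84 to 8.40 kb after the start, at rank 23760. The SUZ12 promoter was touched by 1 HA region of the tagged line, from 346 to 147 bp before the start, with a −log10 q of 5.34. At RNF2 both antibodies gave a region about 66 kb after the start, beyond the end of the gene.

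The EZH2, BMI1 and RING1 starts, 3 of 9, were covered in the WT HA list, where no tag is labelled, against 9.11% of all genes. In the tagged line the BMI1 and EED starts, 2 of 9, were covered, against 5.50%. BMI1 had 12 HA regions in the WT line against 4 in the tagged line, and the strongest, over the start, ranked 2847 of 78725 in the WT line. The 2 KDM6A regions of WT in the BMI1 window, 4.27 and 12.1 kb after the start, overlapped HA regions of the tagged line but also of the WT line. They are therefore counted for the KDM6A antibody and not for both. EZH2, RING1, SUZ12, CBX2 and CBX7 had no KDM6A region in ARP1.

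**Figure D5:**
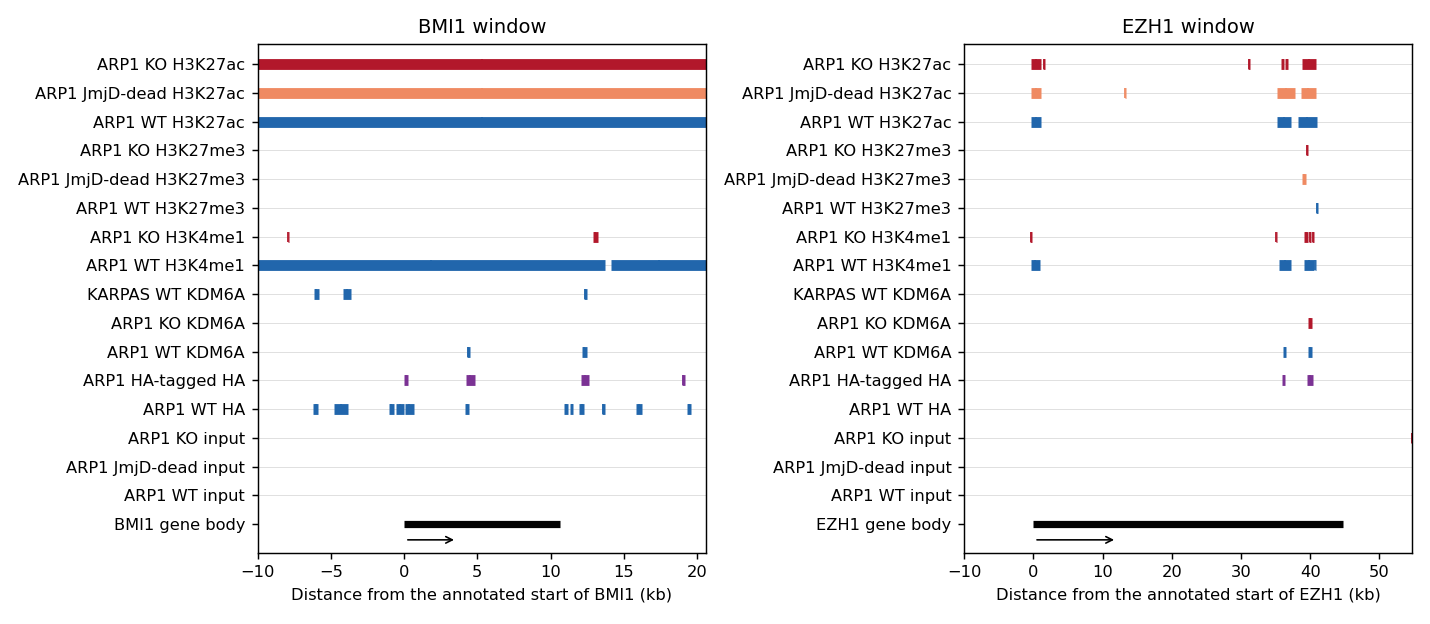
Regions of the 16 human libraries in the BMI1 window (left) and the EZH1 window (right), by distance from each annotated start in kb, 1 library per row, coloured as red for KO, orange for JmjD-dead, blue for WT and purple for HA-tagged. The H3K27ac region fills the BMI1 window in KO, JmjD-dead and WT, and the EZH1 KDM6A region at about 40 kb is in both the KO and WT rows.

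KARPAS cells gave KDM6A regions at 6 of 10 genes, against 54.9% of all genes. JARID2 had 11, of which 4 overlapped an ARP1 WT KDM6A region, against 33.7% of the KARPAS list, and 3 overlapped a site of both ARP1 antibodies, against 6.28%. The first count is near the background. EZH2 had a KARPAS region 44.8 to 45.5 kb after its start, with a −log10 q of 58.5 and rank 3048 of 55867, where ARP1 WT had none. EED had one at 14.9 to 15.5 kb, rank 2286, also with none in ARP1 WT. One BMI1 region was shared with ARP1 WT, and none at EZH2, EED, RNF2 or CBX7.

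Input DNA gave regions at these genes near the background. Regions touched 3 of 10 windows in KO input, 0 in JmjD-dead input and 1 in WT input, against 22.1%, 6.85% and 10.6% of all windows. The highest had a pileup of 3 fragments. None of the H3K27ac start regions overlapped one, but the input libraries held only 0.223 to 0.725 M fragments.

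The other Polycomb genes were taken as a list of 32, of which 30 had enough H3K27ac to compare. In KO 1 was lower, against 6.23% of all genes (LCOR, a PRC2 accessory gene, 2616 bp against 4677 bp in WT) and 2 were higher, against 13% (PCGF3, 2720 bp against 1808 bp, and L3MBTL2, 2045 bp against 1342 bp). In JmjD-dead 1 was lower, against 6.69% (RYBP, 12858 bp against 19760 bp in WT), and 0 were higher, against 5.47%. H3K27ac regions touched 30 of the 32 in every genotype, all but EZHIP and SCML2, against 76.5% of all genes in KO, 74.6% in JmjD-dead and 74.3% in WT. For H3K27me3 in KO, 3 were compared, where 46.4% of all genes were lower and 22.5% higher: PCGF3 was lower, with 0 bp against 1272 bp, and PHF19 higher, with 788 bp against 321 bp. In JmjD-dead 6 of 8 were higher, near the 71.4% of all genes, led by PHF1 and PCGF2, which have no region in the WT list, and PHF19, with 1637 bp against 321 bp. For H3K4me1 28 of 30 were lower in KO, where 87.1% of all genes were, 5 of them with no KO region (BCORL1, CBX6, MTF2, RBBP7 and SCMH1), and PCGF3 was higher. KDM6A regions touched 0 of the 32 in KO and 11 in WT, against 14% and 36.8% of all genes. HA regions touched 17 in the tagged line and 13 in the WT line, against 44% and 35.6%, and KARPAS KDM6A regions 18, against 54.9%.

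Over the 13 lists other than input, the genes whose share of covered window most resembled that of EZH2 were CHKB, PKP3 and VEGFA, with Spearman rho values of 0.99, 0.98 and 0.98. The 13 points share antibodies and depth, and 417 genes reached a rho of 0.9, so the likeness is a description only.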

How the data were processed

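Region lists of chromatin immunoprecipitation libraries were used, 16 human ones from ARP1 and KARPAS cells; 4 mouse lists were not used. The tools named in the submitters' processing notes are Trimmomatic, FastQC, MultiQC, Bowtie2 and MACS2 2.1.2, and the build is GRCh38. MACS 2.2.7.1 made the ARP1 input, H3K27ac and H3K27me3 lists and version 2.1.1.20160309 the rest, per the file headers. Each library was called alone, without an input control or local background, with 0.05 as the q-value limit, so the lists are not corrected for input. The KDM6A and HA tags were extended to 200 bp. For every region the authors deposited its pileup (a coverage signal), its fold enrichment as a ratio, its −log10 p-value and its −log10 q-value.

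Deposited rows with shared coordinates were merged, and chromosomes other than 1 to 22 and X were left out. Gene bodies were those of RefSeq GRCh38.p14 (19970 protein-coding genes). The strand and start came from the RefSeq promoter table, which matched 9 of the 10 genes and 15811 genes in all. Exon positions were not used. Covered base pairs were compared for genes with a mean of at least 500 bp over the 2 libraries, at 1.5-fold. Regions were shared with at least 1 bp of overlap. Alternatives were −log10 q of at least 5, a window of 2.5 kb, equal list lengths, removal of regions on ARP1 input, 50% overlap, 2-fold and no minimum. All 10 genes are named. Of the 32 other Polycomb genes, those past a threshold are named where 5 or fewer, or otherwise the 3 with the most extreme ratios and their ties. The genes, lists and rules were chosen with earlier results of these data known. Python 3.11.15, numpy 2.4.6, pandas 2.3.3 and scipy 1.17.1 were used, and matplotlib 3.10.9 for the figures. The window and overlap functions were tested on simulated data, where 5 of 5 steps returned the seeded answer.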

Additional observations from a re-analysis of the deposited data

How the results depend on the processing

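Each count and median was recomputed under the alternatives, 185 values for 38 results, of which 164 stayed within 1.5 times the reported value, 20 moved further and 1 changed direction. The H3K27ac counts of genes with a region, and the counts of starts covered (an alternative added after seeing the data), were not among those that moved. With −log10 q of at least 5, H3K27me3 regions touched 0 Polycomb genes in KO, 0 in JmjD-dead and 1 in WT, H3K4me1 in KO touched 2, and the KO and WT inputs 0. H3K27me3 in KO then had 0 lower genes and in JmjD-dead 0 higher, with no gene left for either median, and the median H3K4me1 ratio was 0. With equal list lengths, H3K27me3 in JmjD-dead touched 0 genes and WT input 0. The JmjD-dead comparison then had 1 lower and 0 higher genes and a median ratio of 0 in place of 1.82. That value is the 1 counted as a change of direction, but the cut left no JmjD-dead region at these genes. Without regions on input, the count of genes lower in H3K27ac in KO was 0. JARID2 then had 18113 bp in KO against 22511 bp in WT, a ratio of 0.805, because a KO input region of 177 bp removes the 5558-bp WT region. With −log10 q of at least 5 the count stays at 1 but the gene is RNF2 (0.645), JARID2 being at 0.674, and with equal list lengths JARID2 is at 0.614. At 2-fold, 0 genes were lower in H3K27ac in KO and 1 was higher in H3K27me3 in JmjD-dead. With no minimum, H3K27me3 had 3 lower and 1 higher genes in KO and 7 higher in JmjD-dead. With the 2.5-kb window the KO median for H3K27me3 was 0.107. The causes of the other moves were not tested. The H3K27me3 values of these genes rest on regions near the caller's limit at 5.03 to 10.4 M fragments. No paired analysis was possible because each group has 1 library and no result comes from a test.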
